A study of Mus musculus with 21 samples.

Results

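Mouse CD8 T cells kept in low-dose interleukin-2 (IL-2) were compared between day 10 and day 5 of culture. The comparison took every cell of the 2 libraries labelled as wild-type IL-2 at 5 IU/mL, 4703 cells on day 5 and 6382 cells on day 10, together 11085 of the 106458 cells of the series. The cells were of the OT1 line and carry a transgenic T cell receptor specific for an ovalbumin peptide. Naive cells had been stimulated in culture from day 0 by beads coated with anti-CD3 and anti-CD28, wild-type IL-2 at this dose being the cytokine in both libraries. The wider study crossed IL-2, an IL-2 variant (IL-2v, labelled as a mutant) and IL-15 with doses of 5 and 50 IU/mL and with days 3, 5 and 10, beside naive cells and activated cells without cytokine. Each of the 21 conditions had 1 library, and how many mice or cultures stand behind a library is not given in the sources used here. No test between the days was therefore possible, no p-value is given, and every interval below covers counting error only.

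IL-2 binds a receptor made of an alpha, a beta and a common gamma chain and acts through the kinases JAK1 and JAK3 on the transcription factor STAT5. STAT5 switches on survival and growth genes and also its own inhibitors, the CIS and SOCS proteins. After activation, CD8 T cells proliferate, turn to glycolysis and acquire cytotoxic granules, and they later either keep effector features or return towards a resting, lymph-node-homing memory state, a balance in which the strength of IL-2 signalling is known to take part.

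Both libraries held T cell transcripts at high frequency. Cd3d was detected in 98.9% of cells on day 5 and 98.7% on day 10, Cd8b1 in 85.0% and 71.7%, and Cd4 in 0.0425% and 0.0313%. Of the 7 B cell markers, Ms4a1, Pax5 and Igkc were among those that had no UMI (unique molecular identifier, 1 captured RNA molecule) on either day, while Cd79b had 333 and 257 UMIs and the list summed to 17.9 and 8.90 CPM (UMIs of a gene per 1000000 UMIs of its library). Of the 8 myeloid markers, Lyz2, Csf1r, Adgre1 and Cd14 had none, and the list summed to 128 and 127 CPM, of which Cst3 gave 119 and 116 CPM. The median cell had 3942 UMIs and 1376 genes on day 5 and 4118 UMIs and 1589 genes on day 10, and the library totals were 20044689 and 29770050 UMIs. Over all 21 libraries the totals lay between 10591000 and 32648500 UMIs. Ribosomal protein transcripts made up 38.0% of UMIs on day 5 and 32.5% on day 10, and mitochondrial transcripts 4.27% and 3.65%. The libraries shared 7 cell barcodes.

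Summed over cells and scaled to CPM, 5652 genes reached 20 CPM on at least 1 of the days. Of these, 261 genes (4.62%) were at least 2-fold higher on day 10 and 114 genes (2.02%) at least 2-fold lower, on the log2(CPM + 1) scale used for every log2 difference here (day 10 minus day 5), which understates the change of low genes. The median log2 difference of all compared genes was 0.26, so differences are best read relative to that shift. The shares of 4.62% and 2.02% are likewise the ones to set beside the counts of each list below. A gene under 20 CPM on 1 of the days enters only through the other day, which favours a call in that direction. This limit applies to every list below, also where it is not repeated. The split between directions depended on the scaling. With TMM factors (trimmed mean of M values, which centres most genes on no change) 151 of 5554 compared genes were higher and 191 lower. With ribosomal protein and mitochondrial transcripts left out of the totals, 238 of 7101 were higher and 221 lower. That setting brings more genes past 20 CPM, and 182 of the 261 higher genes remained higher in it.

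Among genes reaching 100 CPM on at least 1 of the days, those that stood highest on day 10 were Cish, Gzma, Gadd45g, Eomes and Bcl2, with differences of 3.47 to 4.38 on the log2 scale, and behind them came Lgals3, Cd69, Jaml, AA467197, Ifitm1, Tnfsf8, Serpina3g, Fgl2, Id2 and Jun. The lowest by the same rule were mt-Atp8, Ctla4, Ikzf2, mt-Nd4l and Ncf1, followed by Gm42418, Gm4070, Lars2, S1pr1, Hist1h4d, Il7r, Vps37b, Rps27rt and Nmt1. Of the 261 higher genes, 234 were also above their level on day 3 of the same culture and 249 above the naive level, and 90 had their highest value among the 21 libraries in this day 10 library. Of the 114 lower genes, 11 were above day 3 and 25 above the naive level on day 10. Over all 5652 compared genes the numbers were 3189, 3109 and 697, and genes picked for being high or low on day 10 lean the same way by that choice.

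**Figure D1:**
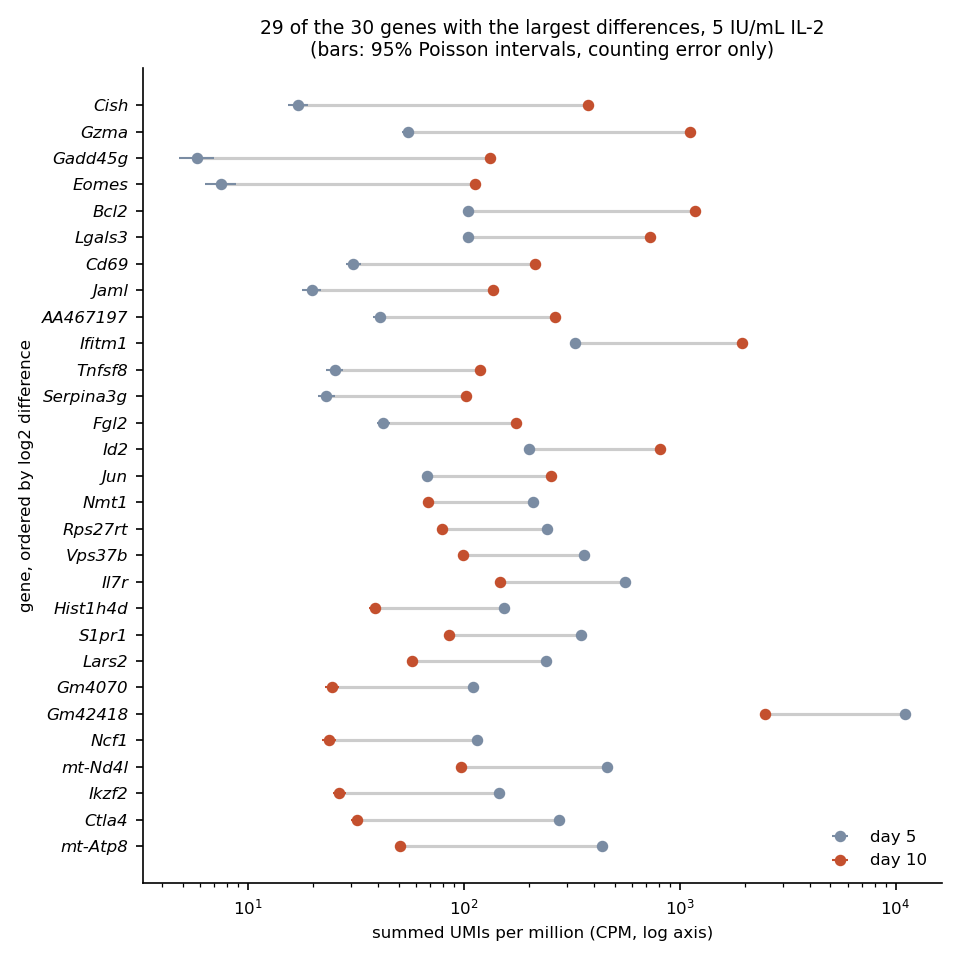
Levels of 29 of the 30 genes with the largest differences among genes reaching 100 CPM on day 5 (grey-blue) and day 10 (orange) in 5 IU/mL IL-2, in CPM on a log axis, with 95% Poisson intervals that are mostly narrower than the points. Cish moved from 17.2 to 377 CPM and Ctla4 from 277 to 32.3 CPM, and for none of the 29 genes do the intervals of the days touch.

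STAT5 targets and feedback inhibitors had the highest median of the 37 lists of gene programmes. The NK and gamma delta T cell marker lists described below, with 2 compared genes each, stood higher, at 3.82 and 2.25. Of those genes Klrb1c, Eomes and Tcrg-C1 reached 20 CPM only on day 10, so the filter favoured these high medians. Of the 13 genes of the STAT5 list 12 reached 20 CPM. Of these, 10 were at least 2-fold higher on day 10, against 4.62% of all compared genes, and none was lower. The list's median difference was 1.58 against 0.26 for all genes. Cish, Gadd45g, Osm and Socs3 reached 20 CPM only on day 10, which favours a higher call. The list was also chosen with earlier results of these data known, so its rank is descriptive. Cish, which encodes the STAT5-induced inhibitor CIS (GRCm38 chromosome 9, 107296026 to 107302784, plus strand), measured 4.71 CPM in naive cells, 14.0 CPM on day 3, 17.2 CPM on day 5 (95% Poisson interval 15.4 to 19.1) and 377 CPM on day 10 (370 to 384). Its level was low in the 3 earlier libraries and 22-fold higher on day 10 than on day 5. The other feedback genes were Socs2, from 33.7 to 115 CPM (log2 difference 1.73), Socs1, from 162 to 524 CPM (1.69), and Socs3, from 16.2 to 34.7 CPM (1.06).

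Bcl2, the mitochondrial survival factor (chromosome 1, 106538178 to 106714274, minus strand), had 191 CPM in naive cells, 133 CPM on day 3, 105 CPM on day 5 (100 to 109) and 1173 CPM on day 10 (1161 to 1186). The first 3 libraries thus descended with day, and the last stood 11.2-fold above day 5. Gadd45g, a stress-response gene (chromosome 13, 51846678 to 51848468, plus strand), had 7.91, 8.78, 5.84 and 133 CPM in the same order. Osm, which encodes the cytokine oncostatin M, went from 6.54 to 55.2 CPM (2.90). The kinase genes Cdk6 and Pim1 were higher by 1.47 and 1.38, and Myc, the growth-promoting transcription factor, by 1.06. Pim2 (0.70) and Odc1 (0.66) stayed under 2-fold, and Pim3 did not reach 20 CPM. Under TMM scaling 8 of the 12 genes remained at least 2-fold higher, and so did 8 of 13 when the totals left out ribosomal protein and mitochondrial genes.

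Of these genes, 2 carry the letters TTCNNNGAA, the core of the STAT binding motif, in the 300 bases around their annotated start. The windows of Cish and Socs3 are shown because these are the list genes that hold a match, with capitals marking the matches. The motif reads the same on the opposite strand. Sequences are from RefSeq, build GRCm38.p6.
Cish, chr9:107296654-107296683, plus strand: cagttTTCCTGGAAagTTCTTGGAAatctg
Socs3, chr11:117969502-117969531, minus strand: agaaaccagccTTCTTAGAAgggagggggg
Positions are counted from the start in RefSeq, which for Cish lies inside the longer gene span of the GRCm38 annotation given above. The Cish matches begin at positions 1 and 12 from that start, and the Socs3 match begins 154 bases before its own. The motif is found for 9.55% of the 27025 genes with a RefSeq promoter window, and at least 2 times in a window for 0.540% of them. Among the 10 genes of the STAT5 list with an entry, 2 hold it, and among 18 of the cytotoxic granule list 4 do (Gzmb, Gzmm, Nkg7 and Ctsc). A match describes letters and is not evidence of binding.

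Bcl2 was detected in most cells on day 10, whereas other genes of the list were found in fewer. After every cell was thinned at random to 2000 UMIs, which left 4628 cells on day 5 and 6083 on day 10, Bcl2 was detected in 16.8% of cells on day 5 (95% Clopper-Pearson interval 15.7 to 17.9) and in 87.8% on day 10 (87.0 to 88.6). Without thinning these shares were 30.3% and 97.6%. Cish was detected in 3.05% (2.57 to 3.58) and 50.9% (49.6 to 52.2) of thinned cells, and in 6.06% and 74.8% of cells without thinning. Among the other higher genes of the list, the day 10 shares ran from 7.46% for Socs3 and 19.4% for Gadd45g to 61.4% for Socs1. The share that free RNA alone would give was not measured, since no class of cells lacking these genes was defined in the cultures. In naive cells, whose median depth was 3799 UMIs, the thinned shares were 28.8% for Bcl2 and 0.783% for Cish.

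Counted over all 13 genes of the STAT5 list, 27.0% of thinned cells showed none on day 5 and 0.838% showed none on day 10. At least 3 of the 13 were detected in 11.1% of cells on day 5 and in 80.3% on day 10, which describes the same libraries per cell and is not further support. The 10% of cells with the most Bcl2 held 24.6% of all Bcl2 UMIs on day 10, and the median cell had 2. The plot of UMIs per cell shows this broad distribution for Bcl2 beside the concentrated one of Gzma.

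**Figure D2:**
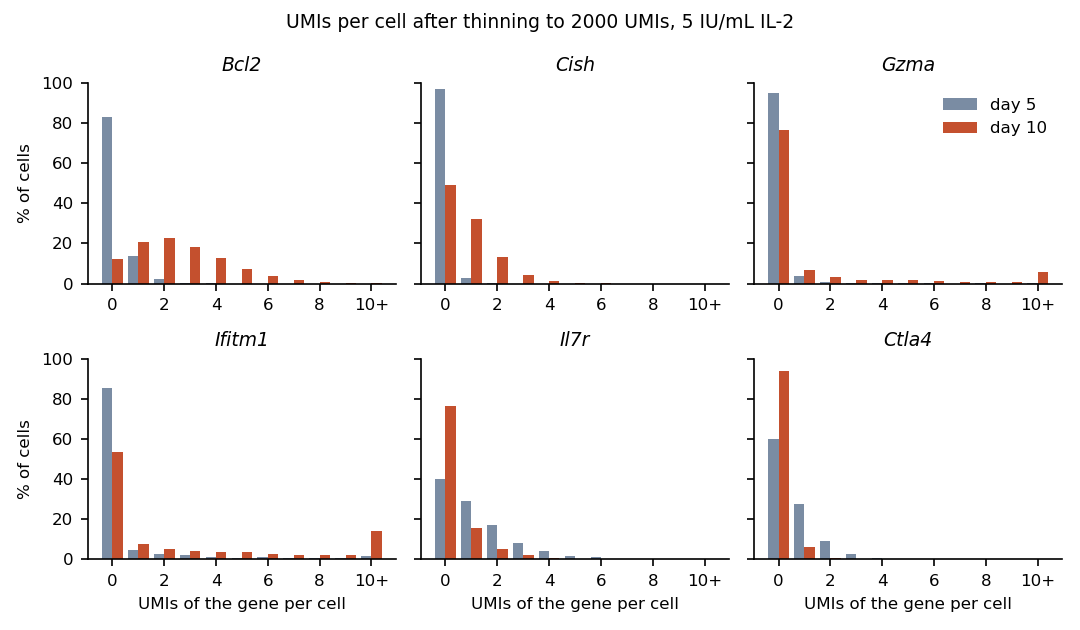
Share of cells (%) by number of UMIs of 6 genes per cell, after thinning to 2000 UMIs, on day 5 (grey-blue) and day 10 (orange) of 5 IU/mL IL-2; the last bin holds 10 or more. The day 10 bars of Bcl2 peak at 2 UMIs, whereas 76.5% of day 10 cells had no Gzma UMI and 5.72% had 10 or more.

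Genes of the IL-2 receptor and its signalling chain differed by less than 2-fold. Of the 8 that reached 20 CPM, of 9 listed, none passed the threshold in either direction (1 was lower under TMM scaling), and the median was 0.13. Il2ra, the alpha chain, had 78.3 CPM on day 5 and 106 CPM on day 10, far below its 264 CPM on day 3. Il2rb, the beta chain, had 224 and 256 CPM, and Il2rg, the common gamma chain, 293 and 207 CPM. Stat5a, with 19.3 and 18.5 CPM, was below the level compared.

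In the BCL2 family, 3 of 9 compared genes were higher (2 under TMM scaling) and none was lower, with a median of 0.60 (15 genes were listed). Beside Bcl2 these were Bcl2l1, which encodes the survival protein BCL-XL, from 8.48 to 41.5 CPM (2.16), and Bax, which encodes a pore-forming killer of mitochondria, from 96.9 to 221 CPM (1.18). Mcl1, a further survival gene, had 222 and 245 CPM. Bcl2l11, which encodes the death-promoting protein BIM, had 79.2 and 86.4 CPM.

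Cytotoxic granule genes were also higher in part. Of 19 listed, 14 were compared (median 0.81). Of these, 5 were at least 2-fold higher on day 10 (4 under TMM scaling), against 4.62% of all compared genes, and none was lower. Between the days compared, Fasl and Prf1 reached 20 CPM only on day 10, which favours a higher call. Gzma, which encodes granzyme A (chromosome 13, 113093825 to 113100981, minus strand), had 32.5 CPM in naive cells, 53.4 CPM on day 3, 55.2 CPM on day 5 (52.0 to 58.5) and 1114 CPM on day 10 (1102 to 1126). The day 10 library alone was high, 20.2-fold above day 5. Gzmb, granzyme B, followed another course, with 6.5 CPM in naive cells, 841 on day 3, 272 on day 5 and 912 on day 10. Fasl, the death ligand, had 2.49, 3.44, 11.1 and 77.7 CPM in that order, and its day 10 value was the highest among the 21 libraries. Prf1, which encodes perforin, had 40.0, 7.91, 6.04 and 26.6 CPM, so that its day 10 value lay below that of naive cells. Nkg7, a granule membrane protein, went from 530 to 1091 CPM between the days compared (1.04).

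Some transcripts typical of natural killer (NK) and gamma delta T cells were also higher on day 10. Klrb1c, which encodes the NK receptor NK1.1, had 0.549 CPM on day 5 and 22 CPM on day 10, Fcer1g 0.599 and 16.9 CPM, and Tcrg-C1, a gamma chain constant region that shares sequence with other gamma chain genes, 1.20 and 28.8 CPM. Trdc had 176 and 294 CPM, and 257 CPM in naive cells. The NK lineage genes Ncr1 and Klra8 were at or near 0, with 1 UMI of Ncr1 on day 10 and none of Klra8 on either day. Klra4 of the NK list had 4 UMIs on day 5 and 0 on day 10, and Sox13 of the gamma delta list 12 and 9. Of the 7 NK and 6 gamma delta markers, 2 of each reached 20 CPM and 3 of these 4 were at least 2-fold higher. Those 3, Klrb1c, Eomes and Tcrg-C1, reached 20 CPM only on day 10, so the filter itself favoured a higher call. Over all compared genes 4.62% were higher. Over the 7 NK markers the summed level was 9.73 CPM on day 5 and 154 CPM on day 10, of which Eomes gave 7.53 and 113 CPM, and over the 6 gamma delta markers it was 184 and 340 CPM. Cells with a UMI of these markers, Eomes and Trdc aside, were also left out, a choice made after seeing the data. They were 2.62% of cells on day 5 and 19.7% on day 10. Without them Gzma was higher by 3.78, Gzmb by 1.44 and Fasl by 2.75. Then 4 of 14 granule genes were at least 2-fold higher, and over all genes 238 were higher and 105 lower. Cells of these types without a captured marker UMI stay in, so their contribution was not tested.

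Gzma was detected in a minority of cells on both days. A UMI was found in 5.06% of thinned cells on day 5 (4.44 to 5.73), in 23.5% on day 10 (22.5 to 24.6) and in 1.23% of naive cells, and in 8.42%, 28.5% and 2.11% of cells without thinning. The 10% of day 10 cells with the most Gzma held 85.5% of its UMIs. Cells with Gzma differed from those without in several memory and effector genes on day 10. Among the 1431 cells with a Gzma UMI, Il7r was detected in 11.8% against 27.1% of the 4652 other cells and Tcf7 in 12.8% against 34.4%. Ifitm1 was found in 71.9% against 38.7%, Ccr2 in 64.4% against 37.7% and Id2 in 83.9% against 60.2%. The STAT5-list genes went either way in this split. Gadd45g was found in 25.4% against 17.5%, Cish in 49.7% against 51.3%, Bcl2 in 82.7% against 89.4% and Socs1 in 55.3% against 63.3%. Cells of 1 library are not replicates, so these shares describe that library.

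Cytokine genes were mostly low. Of 17 listed genes that were measured, 6 reached 20 CPM. Of these, 2 were higher, against 4.62% of all compared genes, and none was lower. The 2 higher genes, Tnf and Lta, reached 20 CPM only on day 10, which favours a higher call. Tnf went from 7.93 to 77.9 CPM (3.14), its highest value among the 21 libraries, and Lta, its neighbour that encodes lymphotoxin alpha, from 9.73 to 80.8 CPM (2.93). Ltb had 1042 and 957 CPM. Ccl5, a chemokine of memory and effector cells, had 505 and 737 CPM, while the share of thinned cells with a UMI was 20.01% and 40.8%. Ifng, below the compared level, had 0.499 and 6.62 CPM.

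Regulators and markers of naive and memory cells, mostly transcription factors, had a median below that of all genes. Of 16 listed, 14 were compared, 3 were at least 2-fold lower and 1 was higher, with a median of -0.71. Dapl1, a marker of naive and memory-like CD8 cells, fell by 1.75 (80.3 to 23.2 CPM), Id3, an inhibitor of E proteins that is kept in memory precursors, by 1.58 (122 to 40.2 CPM), and Klf3 by 1.08. Tcf7, which encodes TCF-1, measured 471 CPM in naive cells, 188 on day 3, 295 on day 5 and 177 on day 10, a difference of -0.74. Lef1, its relative, had a difference of -0.83, and Klf2, which sustains lymph node homing genes, one of -0.98. With TMM scaling 6 of the 14 were at least 2-fold lower.

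The exception was Eomes (chromosome 9, 118478212 to 118486132, plus strand), a T-box factor of memory and cytotoxic cells, which had 26.8 CPM in naive cells, 9.22 on day 3, 7.53 on day 5 (6.38 to 8.84) and 113 on day 10 (109 to 117). Its day 5 value was the lowest of the 21 libraries and its day 10 value the second highest. It was detected in 1.12% of thinned cells on day 5 and 17.9% on day 10, and in 21.4% of day 10 cells with Gzma against 16.9% of those without. Tbx21, which encodes the related factor T-bet, had 21.95 and 18.3 CPM.

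Effector-associated regulators differed in both directions. Of 13 compared, of 22 listed, 3 were higher and 2 lower (median -0.22). Id2, an inhibitor of E proteins linked to effector cells, went from 202 to 816 CPM and from 23.2% to 65.8% of thinned cells, so that Id2 and Id3 moved in opposite directions. Bhlhe40 (1.74) and Irf8 (1.67) were the other higher genes. Ikzf2, which encodes Helios, fell by 2.42 (147 to 26.6 CPM), and Hif1a, the oxygen-sensing factor, by 1.12 (244 to 111 CPM).

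The lymph node homing and egress genes Ccr7 and S1pr1 were lower on day 10. In the homing and egress list, 3 of 7 compared genes were lower and 1 was higher (8 listed, median -0.98). S1pr1, the sphingosine 1-phosphate receptor needed to leave lymphoid tissue, had 448 CPM in naive cells, 126 on day 3, 352 on day 5 and 86.1 on day 10. Ccr7, the lymph node chemokine receptor, had 241, 172, 139 and 49.9 CPM. S1pr1 was thus higher on day 5 than on day 3 and lowest on day 10, whereas Ccr7 was lower at each later day. Cd69, whose protein removes S1P receptor 1 from the cell surface, went the other way, from 30.9 to 213 CPM (2.75), the highest of the 21 libraries.

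**Figure D3:**
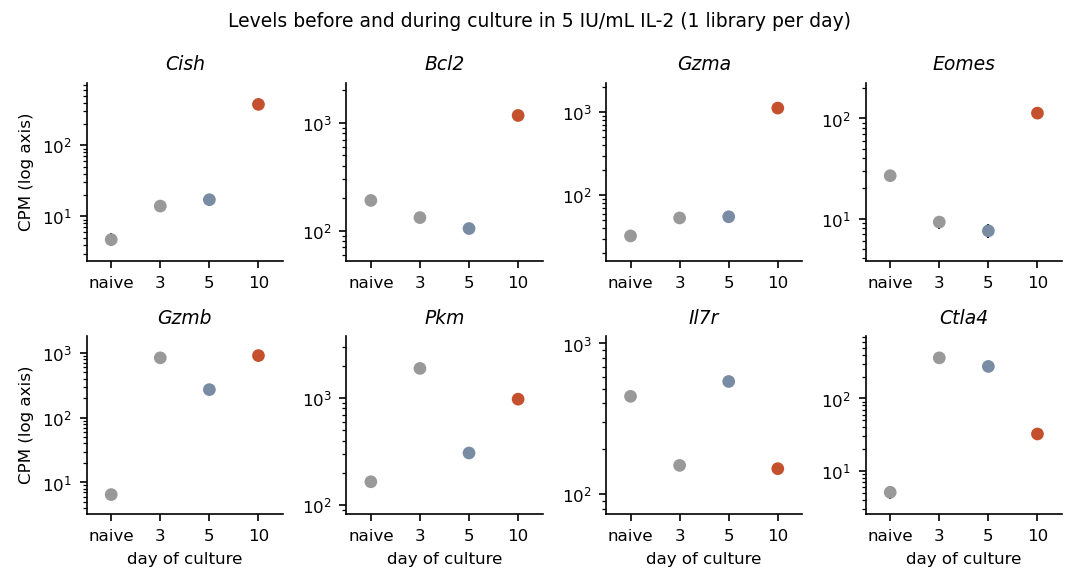
Levels of 8 genes (CPM, log axis) in naive cells and on days 3, 5 and 10 in 5 IU/mL IL-2, 1 library per point, with 95% Poisson intervals mostly hidden by the points. Cish, Bcl2, Gzma and Eomes are high on day 10 alone, Gzmb and Pkm dip on day 5, and Il7r peaks on day 5.

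Among chemokine receptors, 4 of 10 listed were compared, 2 were higher and none lower (median 1.23, and 0.50 over the 7 genes that reached 1 CPM). Ccr2, a receptor for inflammatory chemokines, went from 118 to 381 CPM (1.68), the highest value among the 21 libraries. Cxcr6 had 186 and 345 CPM (0.89), and Cxcr3 had 123 and 135 CPM. In the adhesion list, 2 of 18 compared genes were higher (1 under TMM scaling) and 1 lower (23 listed, median 0.12). Over all compared genes 4.62% were higher and 2.02% lower. Itga1, a collagen-binding integrin chain of tissue-resident cells, went from 2.10 to 23.8 CPM (3.00) and Ly6c2 from 321 to 668 CPM (1.06), while Itga4 fell by 1.42. Cd44 had 52.0 and 89.7 CPM.

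**Figure D4:**
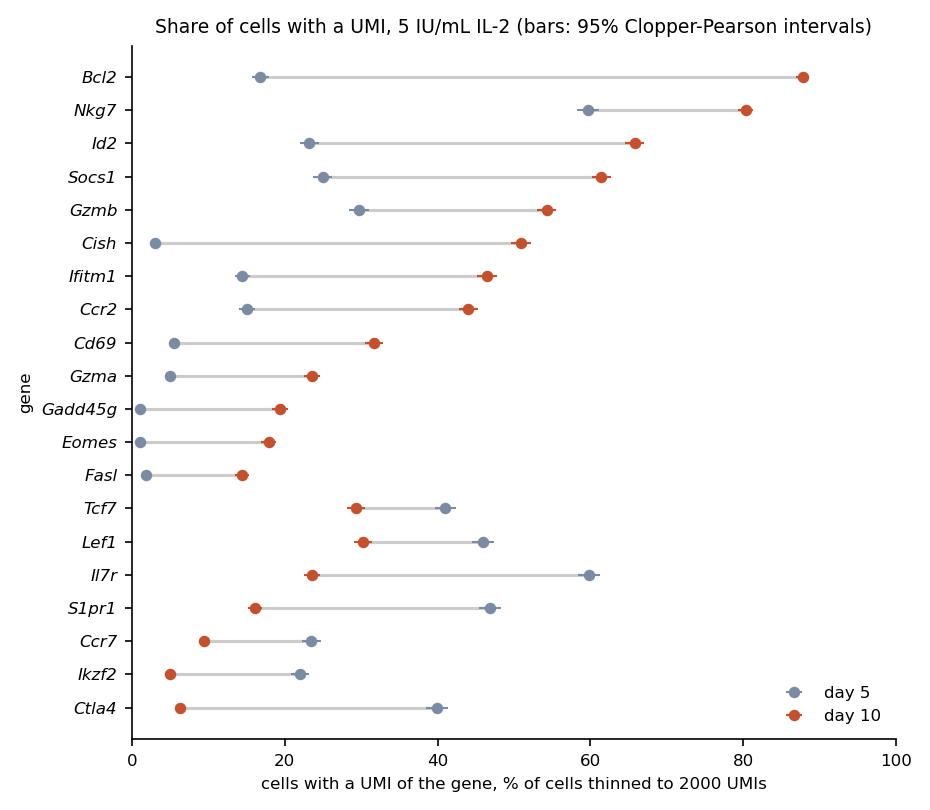
Share of cells (% of cells thinned to 2000 UMIs) with at least 1 UMI of 20 genes on day 5 (grey-blue) and day 10 (orange) of 5 IU/mL IL-2, with 95% Clopper-Pearson intervals. Bcl2 moved from 16.8% to 87.8% and Cish from 3.05% to 50.9%, while Il7r went from 59.9% to 23.5% and Ctla4 from 39.9% to 6.33%.

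Il7r, the receptor chain for the survival cytokine IL-7 (chromosome 15, 9505788 to 9530176, minus strand), had 446 CPM in naive cells, 155 on day 3, 560 on day 5 (549 to 570) and 148 on day 10 (144 to 152). It was high in naive and day 5 cells and low on days 3 and 10. Of 15 cytokine receptor genes compared, of 20 listed, it and Il6st (-1.23) were lower. Il18rap (1.54), Il12rb1 (1.21) and Il10rb (1.05), chains of the IL-18, IL-12 and IL-10 receptors, were higher. The median of this list was 0.36.

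The activation-induced inhibitory receptors Ctla4 and Lag3 were lower. Ctla4, a brake on CD28 signalling (chromosome 1, 60887000 to 60915832, plus strand), had 5.04 CPM in naive cells, 364 on day 3, 277 on day 5 (270 to 285) and 32.3 on day 10 (30.3 to 34.4). It was detected in 39.9% of thinned cells on day 5 and 6.33% on day 10. Lag3 fell by 1.80, from 44.8 to 12.2 CPM, after 135 CPM on day 3. These were 2 of 5 genes compared among 12 measured, none was higher, and the median was 0.37. That median rests on few genes and was negative in 5 of the alternatives, -0.91 with TMM scaling (4 genes) and -1.07 with ribosomal protein and mitochondrial genes left out of the totals (7 genes). Pdcd1, which encodes PD-1, was under the compared level with 4.59 and 1.31 CPM. In the TNF receptor family 1 of 9 compared genes was higher, Tnfrsf9, which encodes the costimulator 4-1BB, from 8.88 to 43.3 CPM, below its 172 CPM on day 3. Of the 3 killer lectin-like receptor genes compared, of 11 listed, Klrb1c was the 1 past 2-fold, while Klrd1 had 795 and 694 CPM and Klrk1 had 79.9 and 90.8 CPM. None of the 18 T cell receptor and CD8 genes passed 2-fold (median 0.06, with 2 lower under TMM scaling), although Cd8b1 stood at -0.83, from 758 to 426 CPM.

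Glycolytic genes were together higher on day 10 than on day 5, and their summed level lay below that of day 3. Of 22 compared genes of the glycolysis and hypoxia list, of 23 listed, 12 were at least 2-fold higher and none was lower (median 1.01), and the summed level was 2121 CPM in naive cells, 19119 on day 3, 6016 on day 5 and 11609 on day 10. Pkm, which encodes pyruvate kinase, had 166, 1887, 308 and 976 CPM in that order. Slc16a3, the lactate exporter, was higher by 2.21, Bnip3, a hypoxia-induced mitophagy gene, by 1.87, Eno1, enolase, by 1.79 and Tpi1, triose phosphate isomerase, by 1.58. Ldha, lactate dehydrogenase, had 440 and 886 CPM (1.01) and Gapdh 1559 and 2785 CPM (0.84). With TMM scaling 9 of 21 were at least 2-fold higher. Pkm, Eno1 and Pgam1 share part of their sequence with other annotated genes, so reads could have been split between copies.

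Other metabolic lists held few genes past 2-fold. Over all compared genes 4.62% were higher and 2.02% lower, so the counts of the shorter lists are near those shares. Of 83 nuclear oxidative phosphorylation genes 1 was higher and none lower (median 0.05), where TMM scaling gave none higher and 2 lower. Of 13 fatty acid oxidation genes 1 was higher, Acadvl, which overlaps Dvl2 on the opposite strand, and none was with TMM scaling. None of the 15 cholesterol and fatty acid synthesis genes (median -0.08) or the 10 amino acid uptake genes (0.25) passed 2-fold, apart from 1 amino acid gene that was lower under TMM scaling. The 82 ribosomal protein genes also held no gene past 2-fold, with a median of -0.18 below that of all genes, and under TMM scaling 5 of them were lower.

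**Figure D5:**
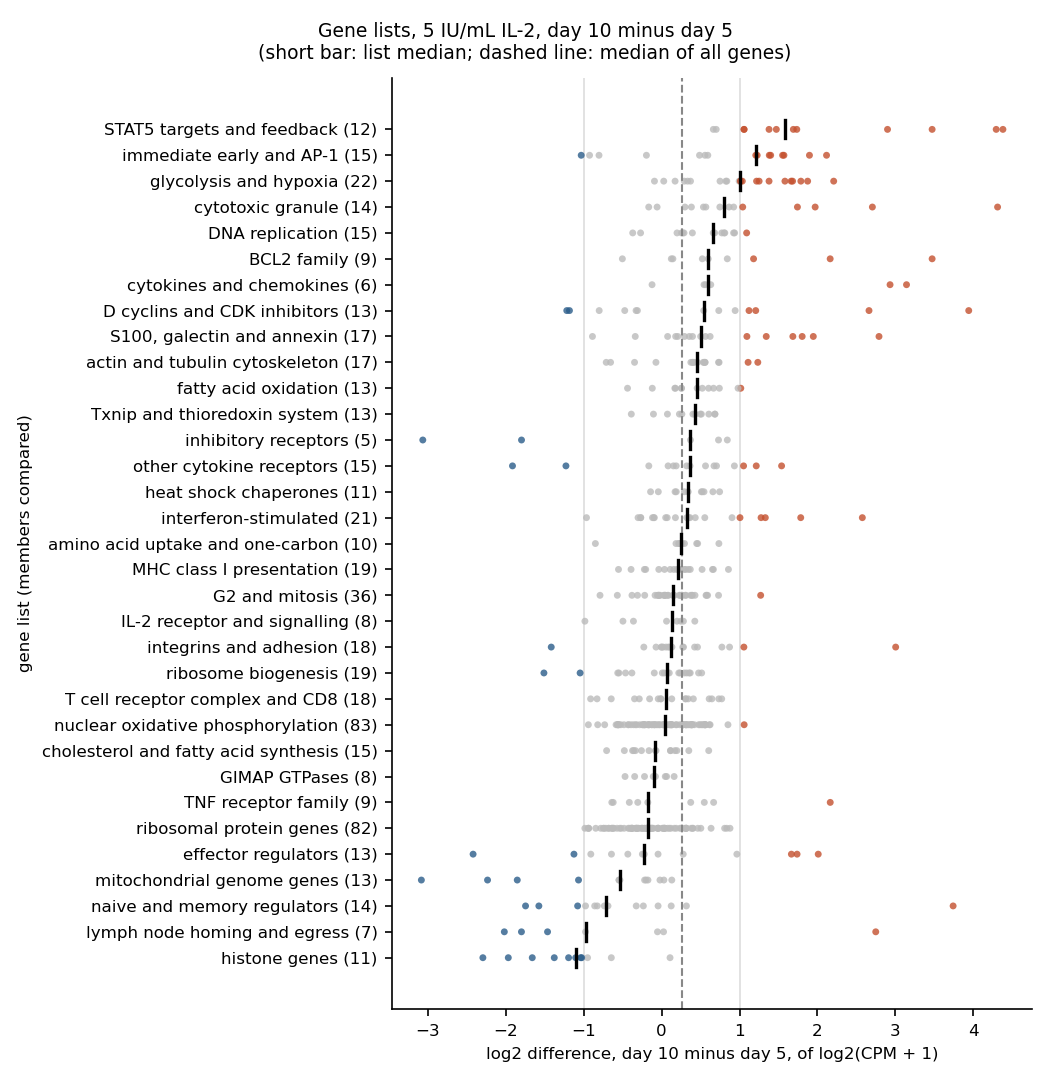
Log2 differences (day 10 minus day 5) of the members of 33 gene lists with at least 5 compared genes, 1 point per gene, orange at 1 or above and blue at -1 or below, with a short black bar at the list median and a dashed line at the median of all genes, 0.26. The STAT5 list lies farthest to the right at 1.58, and the histone list farthest to the left at -1.10.

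The share of cells in cycle on days 5 and 10 was close by 1 rule, and the direction of the difference depended on the rule. Cells with a UMI of the proliferation genes Mki67 or Top2a made up 12.4% of thinned cells on day 5 (11.5 to 13.4) and 11.8% on day 10 (11.03 to 12.7), after 55.1% on day 3 and 2.04% in naive cells. The intervals of days 5 and 10 overlap. Without thinning the shares of days 5 and 10 were 18.7% and 18.2%, and without cells above 2 times the median UMIs they were 10.1% and 8.32%. By at least 3 UMIs of the DNA replication and mitosis lists they were 62.7% and 65.8%, with day 10 the higher. Among 36 compared G2 and mitosis genes 1 was higher, Psrc1, and none lower (median 0.15). Among 15 DNA replication genes 1 was higher, Tyms (none under TMM scaling), and none lower. The median of the DNA replication genes was 0.66, and 0.025 over the 9 genes compared without cells above 2 times the median UMIs. Over all compared genes 4.62% were higher and 2.02% lower. The 30 genes with the largest differences among those reaching 100 CPM differed in cycling and in other cells. All 30 were at least 2-fold apart in the same direction within cells with a Mki67 or Top2a UMI and within cells without. Cish was higher by 3.85 and 4.55 in these classes, Bcl2 by 3.12 and 3.57 and Gzma by 3.38 and 4.72. The 30 genes were picked for large differences over these same cells, which favours that outcome.

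Inhibitors of the cell cycle were among the genes that differed. Of 13 compared D cyclin and inhibitor genes, of 20 listed, 4 were higher and 2 lower (median 0.54, and -0.0021 over the 19 genes that reached 1 CPM). Cdkn2a, which encodes p16 and p19ARF, had 0.599 CPM on day 5 and 23.6 CPM on day 10 (3.94), and was detected in 3.06% of thinned day 10 cells. Cdkn1a, which encodes p21, went from 6.54 to 46.7 CPM (2.66), and Cdkn2c and Ccng1 were higher by 1.21 and 1.12. Cdkn2a and Cdkn1a reached 20 CPM only on day 10, which favours a higher call. The antiproliferative genes Btg2 and Btg1 fell by 1.22 and 1.18. Under TMM scaling 3 of the 13 were higher and 3 lower.

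Parts of the interferon-stimulated list and of the S100, galectin and annexin list were higher on day 10. In the interferon-stimulated list 5 of 21 compared genes were higher and none lower (30 measured, median 0.32; 4 and 1 under TMM scaling), and 3 of them were the membrane proteins Ifitm1, Ifitm2 and Ifitm3. Ifitm1 had 0.650 CPM in naive cells, 6.76 on day 3, 327 on day 5 and 1953 on day 10, and was detected in 14.5% and 46.5% of thinned cells on days 5 and 10. Ifitm2 and Ifitm3 were higher by 1.33 and 1.78, and they share sequence with each other's family. Rtp4 (1.28) and Irf7 (1.01) completed the 5, and the list's median lay 0.07 above that of all genes. In the S100, galectin and annexin list 6 of 17 compared genes were higher and none lower (18 measured, median 0.50; 5 and 1 under TMM scaling). They were Lgals3, which encodes galectin-3 (104 to 727 CPM), Anxa1 (23.8 to 94.6 CPM), S100a4 (281 to 983 CPM), the filament gene Vim (690 to 2219 CPM), Anxa2 (138 to 352 CPM) and S100a6 (1209 to 2583 CPM). S100a4 overlaps a readthrough transcript, which leaves its assignment uncertain.

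Immediate early genes were also higher in part. Of 15 compared, of 23 listed, 8 were higher and 1 lower (median 1.21; 7 and 3 under TMM scaling, with a median of 0.70). Jun, a subunit of AP-1, went from 67.8 to 255 CPM (1.90), Egr1 from 12.02 to 55.5 CPM (2.12) and Jund from 401 to 1045 CPM (1.38), the last overlapping an antisense transcript. Fosl2 (1.57), Ier5 (1.55), Dusp6 (1.40), Dusp2 (1.23) and Ier3 (1.21) were the others, and Zfp36l1, which also overlaps an antisense transcript, fell by 1.03. Fos was under the compared level on both days, with 0.200 and 1.21 CPM.

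Gm42418 and Lars2, 2 of the lowest genes on day 10, were lower in all day 10 libraries than in all day 5 libraries. Gm42418, a locus that overlaps ribosomal RNA, had 11100 CPM on day 5 and 2486 CPM on day 10 here, between 6190 and 15916 CPM in all 7 day 5 libraries, between 1704 and 3060 CPM in all 6 day 10 libraries, and between 2753 and 4245 CPM in the 7 day 3 libraries. Lars2 showed the same split, with 145 to 510 CPM in the day 5 libraries and 57.9 to 94.1 CPM in the day 10 libraries. With 1 library per condition, culture time and library preparation cannot be told apart for these loci or for any other gene compared here. mt-Atp8 and mt-Nd4l were at their lowest among the 21 libraries in the day 10 library, at 50.6 and 97.9 CPM. Gm4070, Rps27rt and mt-Nd4l share nearly all of their sequence with other annotated transcripts, so their assignment is uncertain. Serpina3g shares part of its sequence with related genes, and Vps37b overlaps Hip1r on the opposite strand.

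The same quantities were computed between days 5 and 10 of 3 other cultures. The treatment labels of the 50 IU/mL IL-2 libraries name another interleukin than their titles, and the titles were followed, so the cytokine of that culture is uncertain. At 50 IU/mL IL-2, 350 of 5847 genes passed 2-fold upwards and 1135 downwards from day 5 to day 10. With 5 IU/mL IL-2v the numbers were 115 and 244 of 5797, and with 5 IU/mL IL-15 they were 72 and 189 of 5463. The median log2 difference of all genes compared in each was -0.25, -0.10 and 0.08 in that order, against 0.26 here. Counts and medians of the cultures are best read relative to these shifts. The 12 STAT5-list genes compared at low-dose IL-2 had a median difference of 1.58 here. For the same genes it was -0.31 in the 50 IU/mL IL-2 culture, -0.17 in IL-2v and -0.44 in IL-15. Cish, Gadd45g, Osm and Socs3 were among the 12 only through their day 10 level at low-dose IL-2, which favours the higher median here. In IL-15, Gadd45g was near the floor on both days, at 3.18 and 1.54 CPM. With 1 library per condition, whether the cultures differ in their day difference was not tested.

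Single genes of the list behaved unlike each other across the cultures. Cish had 97.3 and 163 CPM on days 5 and 10 with 50 IU/mL IL-2, 73.3 and 69.2 CPM in IL-2v, and 18.5 and 12.8 CPM in IL-15. Bcl2 had 449 and 333 CPM, 813 and 641 CPM, and 432 and 517 CPM in those cultures. The low-dose IL-2 culture thus held the lowest Bcl2 value of the 4 on day 5, at 105 CPM, and the highest on day 10, at 1173 CPM. Gzma, in contrast, had 160 and 5352 CPM with 50 IU/mL IL-2, and 18.8 and 15.3 CPM with IL-2v. Ctla4 was at least 2-fold lower on day 10 in all 3, with differences of -2.96, -2.90 and -1.27. The cycling share went from 47.3% to 8.31% of thinned cells in 50 IU/mL IL-2, from 33.8% to 31.8% in IL-2v and from 15.1% to 2.63% in IL-15.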

How the data were processed

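Single-cell RNA was measured in 21 libraries, 1 per condition. The deposited tables hold raw UMI counts per gene symbol and cell, and the authors' processing used Cell Ranger, Seurat 3.0.2 and 4.0.1 and the build mm10, per the submitters' processing notes. The annotation and any removal of doublets are not given in the sources used here. The labels' extraction protocol describes sorted tumour T cells and the growth protocol describes culture, and the libraries were treated as cultured cells. All 17516 gene symbols were read with Python 3.11.15, numpy 2.4.6, scipy 1.17.1 and pandas 2.3.3. UMIs of all cells were summed per library and scaled to CPM, with a pseudocount of 1 and a minimum of 20 CPM on either day. Genes past 2-fold were counted. Named genes were the 15 highest and 15 lowest differences among genes reaching 100 CPM, and members of 37 programme and 9 marker lists. The members and lists were chosen with earlier results of these data known. Shares of cells were taken after thinning to 2000 UMIs, which left out 75 cells on day 5 and 299 on day 10, with exact 95% intervals. The calling rule was tried on counts simulated with counting error only. That simulation holds no differences between cultures or library preparations, so it cannot show how reliable calls between single libraries are. Alternatives covered cell filters, scaling (edgeR 4.0.16 TMM in R 4.3.3), pseudocount, expression filter, thinning and the cycling rule. Doublets were addressed only by leaving out cells above 2 times the median UMIs. Positions and overlaps came from the GRCm38 annotation and promoters from RefSeq. Results of some items are not reported here, but counts over all genes and lists include them.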

Additional observations from a re-analysis of the deposited data

Results flagged for a closer look

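Of the 30 genes with the largest differences among those reaching 100 CPM, 9 changed at least 2-fold in the opposite direction in another culture between the same days, a difference between cultures that was not tested, since each condition had 1 library. With 5 IU/mL IL-15, day 10 was lower than day 5 for Gzma (log2 difference -1.27), Lgals3 (-2.76), Cd69 (-1.0002), AA467197 (-3.26), Ifitm1 (-2.42), Serpina3g (-1.15) and Fgl2 (-2.02), all of them higher on day 10 in low-dose IL-2. With IL-15 these genes stood low, at 14.9 (Fgl2) to 31.4 CPM (Serpina3g) on day 5. On day 10 they stood at 1.97 (AA467197) to 13.6 CPM (Serpina3g). Ifitm1 (16.1 and 2.19 CPM) and Fgl2 (14.9 and 2.92 CPM) were under 20 CPM on both days there. Il7r, lower in low-dose IL-2, was higher by 1.38 with IL-15. Jun, higher in low-dose IL-2, had a difference of -1.18 with 5 IU/mL IL-2v.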

How the results depend on the processing

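No paired analysis was possible because each condition had 1 library, and for the same reason no replicate could be left out. All 30 genes with the largest differences among those reaching 100 CPM kept a difference of at least 2-fold in the same direction under every alternative computed for single genes. They were picked as the extremes of the same counts, which favours that outcome. Over 117 genes, 1196 of 1287 alternative values did so, and 1 reversed: Hist1h3c, -1.10 with all cells, was 0.69 once cells with Mki67 or Top2a were left out. The counts of higher and lower genes, 261 and 114 of 5652, became 151 and 191 of 5554 with TMM scaling. They became 143 and 72 with a pseudocount of 10, and 536 and 347 of 11414 genes with a filter of 1 CPM. The lower count became 221 of 7101 without ribosomal protein and mitochondrial genes in the totals. Under TMM scaling the 151 were all among the 261 and the 114 were all among the 191. TMM scaling moved the list medians by a median of -0.20, and those of 2 lists, inhibitory receptors and immediate early genes, by more than 0.3. The medians of 8 of 37 lists changed sign with TMM scaling, none of them over 0.37 in size before, and at most 6 did in any other setting. The largest median to change sign was that of the D cyclin and inhibitor genes, 0.54, which became -0.0021 with the filter of 1 CPM. The cycling shares of days 5 and 10, 12.4% and 11.8%, became 8.59% and 8.23% with thinning to 1000 UMIs, 18.7% and 18.2% with none, 62.7% and 65.8% by at least 3 UMIs of the cycle lists, and 10.1% and 8.32% without cells above 2 times the median UMIs. With at most 5% mitochondrial UMIs they were 13.6% and 11.1%. The cause of the shifts was not tested, apart from depth and the rule itself, which set how many cells can show a UMI. Cells with at least 1000 UMIs, 500 genes and at most 10% mitochondrial UMIs were all cells of both libraries. Genes under 20 CPM on both days of low-dose IL-2 were not compared, and this minimum was not applied to the flagged values of other cultures.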

Other observations

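Several gene groups outside the comparisons above were described by the same counts. Histone genes were the list with the lowest median, -1.10, which ran from -1.31 to -0.78 over the alternatives. Of 66 listed, 11 were compared. At least 2-fold lower on day 10 were 8 of these, against 2.02% of all compared genes, and none was higher. Hist2h2ac, Hist1h4h, Hist1h3e and Hist1h3c reached 20 CPM only on day 5, which favours a lower call. Hist1h4d, a core histone gene, had 71.2 CPM on day 3, 154 CPM on day 5 and 38.7 CPM on day 10, and Hist1h1e, a linker histone, had 187, 264 and 115 CPM. Members of this multigene family share sequence, so single assignments are uncertain. In the other 3 cultures the same histone genes had median differences of -2.23, -1.50 and -2.08. Of the 13 genes of the mitochondrial genome, 4 were lower (mt-Atp8, mt-Nd4l, mt-Nd5 and mt-Nd6) and none higher.

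Groups without a gene past 2-fold were the 19 compared MHC class I presentation genes (median 0.21), 11 heat shock chaperones (0.34), 8 GIMAP GTPases (-0.09), which are small GTPases of lymphocyte survival, and 13 thioredoxin system genes (0.43). In ribosome biogenesis 2 of 19 genes were lower, the RNA helicase gene Ddx21 (-1.51) and Wdr43 (-1.05). Actin and tubulin genes held 2 higher genes of 17, Capg (1.23) and Actg1 (1.11), and 1 with TMM scaling.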
